A study of Homo sapiens with 9 samples.

Results

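The comparison described here sets 3 libraries of EGI-1 cells expressing the hairpin FOSL1sh3 against 3 libraries of the same line expressing the control hairpin GFPsh, 6 of the 9 libraries of the series. EGI-1 is an established line from a human cancer of the bile ducts (cholangiocarcinoma), grown in DMEM with 10% FBS. Both groups carried a TET-inducible short hairpin RNA, received doxycycline at 2 ug per ml for 4 days and were harvested 24 h after seeding, so the drug and the induction of a hairpin are common to both. The hairpin in the control group is named for GFP, and in the other group for FOSL1. The remaining 3 libraries carry FOSL1sh10, another hairpin against FOSL1 in the same line, and they enter the fit to estimate the spread and are used for direct tests of the difference between the hairpins. Libraries were chosen by their titles, all genes were kept, and the labels do not say whether replicates are separate cultures, so that p-values measure the spread between these libraries, which may be technical. A single line and a single hairpin limit the comparison as a model of FOSL1 loss.

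FOSL1 encodes FRA-1, a FOS-family protein that pairs with a JUN protein to form the AP-1 transcription factor. FRA-1 is made in response to growth factor and RAS to ERK signalling, and AP-1 binds short palindromic sites in promoters and enhancers of genes for proliferation, adhesion, matrix turnover and inflammation. High FRA-1 is known from several carcinomas, cholangiocarcinoma among them.

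The 3 control libraries held 7259635, 9015680 and 9211445 counts, and the 3 FOSL1sh3 libraries held 10604251, 7226334 and 8225037. Levels are given as CPM, counts divided by a library size that was scaled by the TMM method, and log2 fold changes are from edgeR's quasi-likelihood fit with Benjamini-Hochberg adjusted p-values over 12814 genes. A gene is called at an adjusted p under 0.05. A value after ± is the standard error for a log2 fold change and the SD (n = 3) for a level in CPM. All 8 biliary epithelial markers had counts, with a summed level of 5411 to 5648 CPM in the control and 6071 to 6339 CPM in the FOSL1sh3 libraries. KRT19 made up most of this sum (4063 to 4316 and 4785 to 5161 CPM), and CFTR and SPP1 had at most 1 count in a library. Of the 6 markers tested, 3 lay above all controls in every FOSL1sh3 library and 3 lay below. EPCAM (980.3 to 1073 and 654.6 to 896.8 CPM) and SOX9 (48.5 to 51.31 and 30.03 to 41.11 CPM) were among those below. Of 8 hepatocyte markers 3 were at 0 in all libraries (summed level 6.30 to 7.31 CPM in the control and 8.08 to 11.6 CPM in the FOSL1sh3 libraries). Of 8 fibroblast and stellate markers 6 were at 0 (2.14 to 3.97 and 2.98 to 6.999 CPM), of 7 leukocyte markers 4 (2.93 to 4.63 and 5.34 to 6.78 CPM) and of 6 endothelial markers 2 (0.772 to 1.10 and 0.577 to 1.33 CPM). Single genes made up most of the hepatocyte, fibroblast and leukocyte sums: SERPINA1, COL1A1 and CD14. In bulk RNA of this kind fewer cells with a transcript and less of it in each cell cannot be told apart.

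The FOSL1sh3 libraries varied more among themselves than the controls. The biological coefficient of variation, the spread beyond counting error, was 20.4% within FOSL1sh3, 14.8% within GFPsh and 13.3% within FOSL1sh10. Measured from the mean of the controls, the median gene departed by 0.33, 0.28 and 0.41 on the log2 scale in FOSL1sh3 libraries 1, 2 and 3, and 1034, 710 and 1485 genes departed by at least 1. Each control library, measured from the mean of the other controls only, had 0.20 to 0.22, with 358 to 385 genes. The departures of the FOSL1sh3 libraries also hold the difference between the groups, so these values do not measure spread alone. Library 3 was thus the most distant and library 2 the nearest, in the same order as on the leading principal component (47.3 for library 3, 32.1 for library 1 and 18.5 for library 2, with all controls below 0).

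The 5 genes with the largest spread among the FOSL1sh3 libraries, at a mean of at least 100 counts, did not pass the test. RPL7, a ribosomal protein gene with many near-identical copies, had 386, 72.8 and 136 CPM in the control libraries and 672, 151 and 71.9 CPM in the FOSL1sh3 libraries. RPS15A, a ribosomal protein of the small subunit, had 136, 94.4 and 56.7 CPM in the control libraries and 359, 57.4 and 188 CPM in the FOSL1sh3 libraries, with a log2 fold change of 1.08 ± 0.44 (adjusted p = 0.12). In both the groups overlapped. Whether RPS15A passed turned on FOSL1sh3 library 2, the lowest of its group for this gene: without that library it was called higher (log2 fold change 1.51, adjusted p = 0.0077). NDUFB3, a subunit of respiratory complex I, had 107, 63.02 and 80.5 CPM in the control libraries and 191, 69.1 and 40.7 CPM in the FOSL1sh3 libraries. MT-ATP6, a mitochondrially encoded subunit of ATP synthase, had 86.5, 123 and 113 CPM in the control libraries and 87.1, 84.97 and 364 CPM in the FOSL1sh3 libraries, and its nuclear copy MTATP6P1 had 10.2, 22.2 and 13.1 CPM in the control libraries and 9.54, 14.1 and 57.3 CPM in the FOSL1sh3 libraries. FOSL1sh3 library 3 was the high one for both. Groups overlapped for these genes too, and reads of genes with near-identical copies may be split or lost among them. With no filter on low counts edgeR's quasi-likelihood test called 4 of the 5 genes higher, all but NDUFB3, and the cause was not tested. RPS15A then had the values log2 fold change 1.08, adjusted p = 5.1e-09. Beside RPL7, the genes with the largest spread among the control libraries were NHSL2, RPS19P3, RPL12P47 and MICOS10, with adjusted p values of 0.66, 0.76, 0.89 and 0.80. Without control library 3, NHSL2 (log2 fold change 1.42, adjusted p = 0.011) and RPS19P3 (log2 fold change 1.04, adjusted p = 0.047) were called higher.

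The targeted gene fell. FOSL1, ENSG00000175592.8 at chr11:65892049-65900573 of hg38, had 303, 257 and 182 CPM in the control libraries and 72.3, 70.3 and 44.9 CPM in the FOSL1sh3 libraries. Every FOSL1sh3 library lay below every control, and the log2 fold change was -1.98 ± 0.20 (adjusted p = 1.2e-05), leaving 25.3% of the control level. The control libraries themselves differed in FOSL1, with library 3 the lowest. FOSL1 was called in every alternative fit tried. With FOSL1sh10 it was at 70.9, 57.1 and 65.8 CPM, and the direct difference between the hairpins was -0.05 ± 0.19 (adjusted p = 0.90).

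Across the transcriptome 1392 of 12814 genes were called (10.9%), 668 higher (5.21%) and 724 lower (5.65%). Changes of at least 1 on the log2 scale were made by 176 of the genes that rose (1.37% of those tested) and 213 of those that fell (1.66%). The median called rise was 0.76 and the median called fall was -0.80, against a median of 0.01 over all genes, and called values ran from -3.68 to 3.04. The 3 FOSL1sh3 libraries did not overlap the 3 controls in 3736 genes (29.2% of those tested). Of the genes tested 1370 (10.7%) were called with no overlap, and 22 (0.172%) were called with an overlap. At an unadjusted p under 0.05 there were 3447 genes (26.9%). Protein-coding genes made up 94.0% of those called and 87.1% of those tested. Scaling by library totals alone called 480 genes higher and 932 lower (34.0% of calls higher), with the median of all genes at -0.06. With the GC content and length trend of each library removed, as described further on, 863 genes passed (6.73%), with 413 (3.22%) up and 450 (3.51%) down, and 667 were shared with the 1392 in the same direction.

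**Figure D1:**
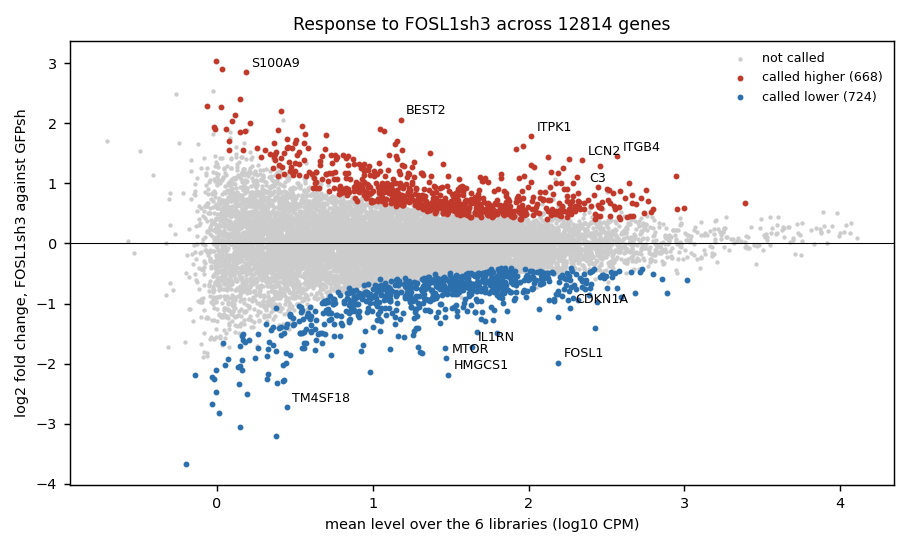
Each point is 1 of 12814 genes, with its mean level over the 6 libraries on the horizontal axis (log10 CPM) and the log2 fold change of FOSL1sh3 against GFPsh on the vertical axis. The 668 genes called higher are red and the 724 called lower are blue, and FOSL1 lies at -1.98.

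The genes raised most included a channel, mucins, surface proteins and a cell cycle inhibitor. For genes named for the size or p-value of their rise or fall, no overlap of the groups was a condition of the choice. BEST2, a bestrophin chloride channel, had 6.07, 5.85 and 5.51 CPM in the control libraries and 20.7, 20.3 and 31.8 CPM in the FOSL1sh3 libraries. The groups did not overlap, the controls lay within 1 CPM of each other, and the rise was 2.06 ± 0.24 (adjusted p = 6.6e-05). ITPK1, an inositol phosphate kinase at chr14:92936914-93116320, had 44.8, 51.2 and 43.6 CPM in the control libraries and 159.9, 146 and 176 CPM in the FOSL1sh3 libraries. This was the call with the smallest p-value of the comparison, a rise of 1.79 ± 0.14 (adjusted p = 1.5e-06), with no overlap. CDKN1C, which encodes the cyclin-dependent kinase inhibitor p57, had 42.8, 46.8 and 36.4 CPM in the control libraries and 126, 127 and 121 CPM in the FOSL1sh3 libraries. All 3 FOSL1sh3 libraries agreed closely there, and the rise was 1.57 ± 0.16 (adjusted p = 1.8e-05).

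L1CAM, a neural cell adhesion molecule, rose by 1.71 ± 0.21 from 6.71 ± 0.892 to 22.1 ± 4.78 CPM. CALML5, a calmodulin-like protein of differentiating epidermis, rose by 1.66 ± 0.23 from 6.60 ± 0.854 to 20.98 ± 4.67 CPM. Among the smaller genes of the group, ADAMTSL5, a secreted matrix-associated protein, rose by 1.81 ± 0.33, and the beta-defensin DEFB1 rose by 1.58 ± 0.31 from 2.47 ± 0.632 to 7.39 ± 2.28 CPM. The calls with the smallest p-values also took in DMAC1, an assembly factor of respiratory complex I (1.44 ± 0.13, from 71.5 ± 3.45 to 193 ± 15.8 CPM), and VAMP3, a SNARE of recycling endosomes (1.27 ± 0.15, from 63.3 ± 3.94 to 153 ± 14.3 CPM). TMC4, of the transmembrane channel-like family, rose by 1.502 ± 0.17 and the Golgi and ER membrane protein gene GRINA by 1.62 ± 0.16. 2 long noncoding RNAs rose, LINC02762 by 1.56 ± 0.25 and PRKAG2-AS1 by 1.67 ± 0.34. Counting did not use strand, so reads of PRKAG2-AS1 and its sense partner cannot be told apart.

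FAM228B was also among the 15 largest rises (1.82 ± 0.43, adjusted p = 0.012), from 1.59 ± 0.727 to 5.73 ± 0.449 CPM. Its call was lost without control library 1, at an adjusted p of 0.055.

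The genes lowered most included genes of sterol synthesis, growth control and cytokine signalling. HMGCS1, the synthase that makes HMG-CoA for sterol synthesis, at chr5:43289395-43313512, had 47.3, 63.02 and 38.7 CPM in the control libraries and 9.13, 15.6 and 8.40 CPM in the FOSL1sh3 libraries. Its log2 fold change of -2.18 ± 0.26 was the lowest among called genes with a mean of at least 30 counts and groups that did not overlap (adjusted p = 7.4e-05). MTOR, the kinase of both mTOR complexes, at chr1:11106535-11262507, had 38.3, 45.9 and 54.9 CPM in the control libraries and 10.3, 16.01 and 11.1 CPM in the FOSL1sh3 libraries. The groups were far apart, and the log2 fold change was -1.91 ± 0.19 (adjusted p = 1.2e-05). IL1RN, the secreted antagonist of the interleukin-1 receptor, had 69.1, 71.01 and 59.6 CPM in the control libraries and 18.9, 18.8 and 23.03 CPM in the FOSL1sh3 libraries. The groups did not overlap, and the log2 fold change of -1.72 ± 0.15 (adjusted p = 5.8e-06) had the smallest p-value among genes that fell.

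CCNG1, cyclin G1, fell (-2.14 ± 0.32) from 15.6 ± 4.27 to 3.61 ± 1.74 CPM. The homeobox gene BARX2 fell (-1.85 ± 0.28) and the G protein regulator RGS2 (-1.82 ± 0.29), with FOSL1sh3 library 3 lowest in RGS2 at 3.69 CPM. TMEM158, a transmembrane protein found through its induction by RAS, fell (-1.81 ± 0.24) and the receptor gene IL7R (-1.78 ± 0.32). GPAT3, an acyltransferase of triglyceride synthesis, had 28.6, 28.6 and 32.5 CPM in the control libraries and 8.72, 9.66 and 8.78 CPM in the FOSL1sh3 libraries, so that its groups were tight and apart (-1.72 ± 0.18, adjusted p = 1.8e-05). GABPB1, a subunit of the GA-binding transcription factor, fell (-1.75 ± 0.31), and the long noncoding RNA LINC00707 (-1.74 ± 0.23). DEPDC1B (-1.79 ± 0.27), SCML1 (-1.69 ± 0.30) and FRMD5 (-1.66 ± 0.32) fell as well. SELENOT, a thioredoxin-like selenoprotein of the ER, fell (-1.48 ± 0.17) from 92.2 ± 7.01 to 33.03 ± 6.40 CPM, and the tetraspanin-like surface gene TM4SF1 (-1.23 ± 0.14) from 217 ± 3.43 to 92.6 ± 14.8 CPM.

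**Figure D2:**
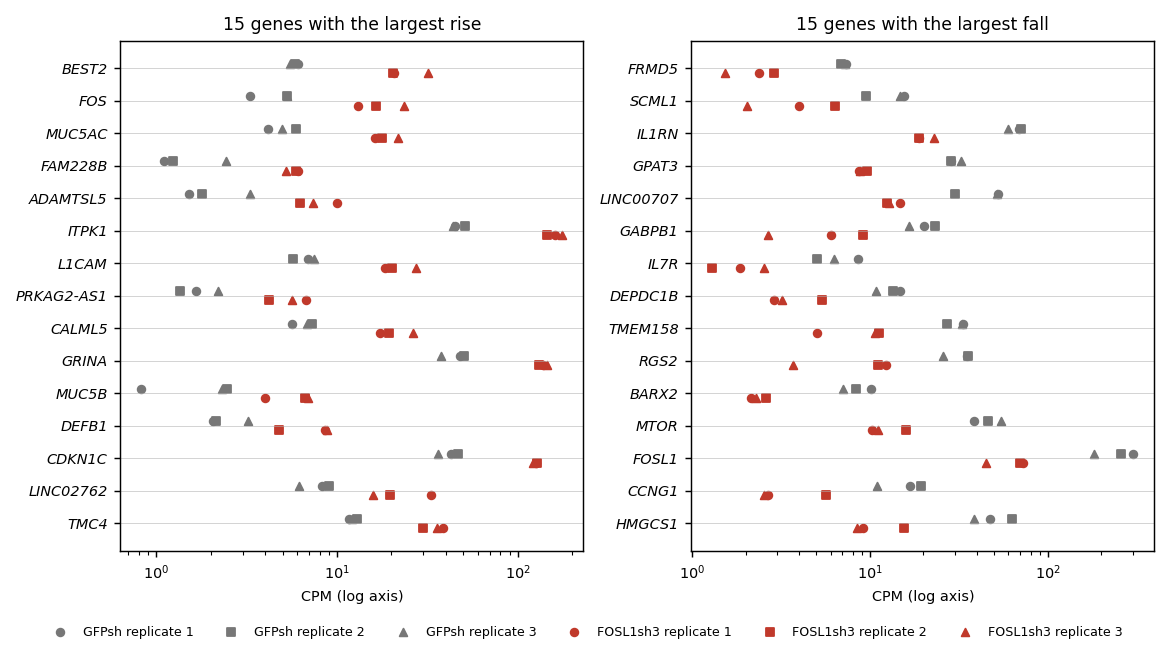
Levels (CPM, log axis) of the 15 genes with the largest rise and the 15 with the largest fall among called genes with a mean of at least 30 counts and no overlap, in each of the 3 GFPsh (grey) and 3 FOSL1sh3 (red) libraries, with a marker shape for each replicate number. In every gene the red markers lie on one side of the grey ones, because the genes were chosen to have no overlap.

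Genes that rose and genes that fell carry the classic AP-1 site, TGACTCA, in the promoter window at shares near that of all genes. The window is 250 bases before to 50 bases after a RefSeq transcription start (GRCh38.p14). The stretches below show where it lies in the 4 genes that fell and are among the 37 named for the size or p-value of their change, read along the gene's strand with the motif in capitals (TGAGTCA is its reverse complement).
IL1RN, chr2:113117726-113117776, plus strand: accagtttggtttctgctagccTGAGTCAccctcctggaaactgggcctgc
SELENOT, chr3:150603148-150603198, plus strand: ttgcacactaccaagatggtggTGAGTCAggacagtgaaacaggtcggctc
FRMD5, chr15:44194447-44194490, minus strand: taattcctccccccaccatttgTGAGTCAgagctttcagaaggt
GABPB1, chr15:50355199-50355230, minus strand: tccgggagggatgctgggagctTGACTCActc
The motif begins 223, 151, 22 and 10 bases before the start in these genes. Of all 13958 windows 3.72% held it on either strand, beside 3.66% of the windows of genes that rose and 3.76% of those of genes that fell. Of these 37 genes 28 had a window and 5 of their 37 windows held it: those of the 4 genes above, which fell, and that of LINC02762, which rose and has it 36 bases after the start. The cyclic AMP response element TGACGTCA was in 2.87% of all windows, 3.12% for genes that rose and 3.05% for genes that fell. A match is a description of letters, and none of these windows was tested for binding.

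Genes of cholesterol synthesis fell or did not pass the test. Of 21 tested genes of the cholesterol pathway 0 were called higher and 9 were called lower (42.9% called, beside 10.9% of all genes). The list median was -0.61 against 0.01 for all genes, and 7 to 11 were called lower when any 1 library was left out. Beside HMGCS1, SQLE, the squalene epoxidase, had 76.6, 65.2 and 66.5 CPM in the control libraries and 30.8, 35.8 and 28.4 CPM in the FOSL1sh3 libraries (-1.13 ± 0.16, adjusted p = 0.00040). MSMO1 (-0.94 ± 0.14) and IDI1 (-0.95 ± 0.16), enzymes of later and earlier steps, fell as well. With the GC content and length trend removed 12 of the 21 were called lower. INSIG1, the ER protein that retains the sterol sensor SCAP and is itself a sterol-responsive target, had 57.9, 64.8 and 83.99 CPM in the control libraries and 20.7, 32.6 and 21.1 CPM in the FOSL1sh3 libraries, again without overlap (-1.48 ± 0.18, adjusted p = 0.00010). Of the 17 tested regulators of sterol uptake and sensing 2 were called higher and 3 lower, 29.4% of the list (1 and 1 with the trend removed).

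Of 18 tested genes of fatty acid synthesis 5 were called lower and 0 higher (27.8%, beside 10.9% of all genes, median -0.28). The count was 2 with the trend removed, 2 without control library 1 or FOSL1sh3 library 3, and 3 without control library 3 or FOSL1sh3 library 1. SCD, the stearoyl-CoA desaturase, fell (-0.94 ± 0.14) from 235 ± 16.3 to 122 ± 13.7 CPM, and the elongase ELOVL6 fell (-0.93 ± 0.17) from 51.5 ± 3.99 to 26.98 ± 5.96 CPM.

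Several mitotic genes fell. Of 49 tested genes 15 were called lower and 0 higher (30.6%, beside 10.9% of all genes, median -0.40). The count lower was 11 with the trend removed, and 10 to 18 when any 1 library was left out. CCNB1, the cyclin of mitotic entry, had 271, 234 and 247 CPM in the control libraries and 139.6, 159 and 104 CPM in the FOSL1sh3 libraries, with a log2 fold change of -0.90 ± 0.16 (adjusted p = 0.0019). AURKA, the kinase of centrosomes and spindle poles, fell (-0.74 ± 0.13) from 85.4 ± 2.31 to 51.3 ± 1.44 CPM, and KIF23, a kinesin of cytokinesis, (-0.88 ± 0.15). CCNA2, cyclin A2, fell (-1.09 ± 0.21) from 39.7 ± 4.57 to 18.7 ± 5.21 CPM. Of 45 DNA replication genes 6 were called lower and 0 higher (median -0.21). This was 13.3% of the list, beside 10.9% of all genes called and 5.65% called lower. The count was 2 with the trend removed or without control library 1, control library 3 or FOSL1sh3 library 3, and 3 without FOSL1sh3 library 1. POLE2 (-1.52 ± 0.25) and POLD3 (-0.90 ± 0.19), subunits of replicative DNA polymerases, fell.

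Growth and arrest genes went both ways. CDKN1C rose, as given above, while CDKN1A, which encodes the inhibitor p21, had 252, 235 and 262 CPM in the control libraries and 123, 109 and 123 CPM in the FOSL1sh3 libraries and fell (-1.07 ± 0.13, adjusted p = 9.3e-05). CDK6, the kinase that partners D-type cyclins, fell (-1.22 ± 0.19) from 35.3 ± 7.71 to 15.2 ± 2.71 CPM. Of 23 tested p53 targets 1 was called higher and 5 lower (26.1%, beside 10.9% of all genes). The count lower was 3 with the trend removed, or without control library 1, control library 3 or FOSL1sh3 library 3. GADD45A fell (-0.96 ± 0.18) from 194 ± 27.7 to 99.4 ± 27.1 CPM, and GADD45B rose by 0.76 ± 0.14. Of 28 tested genes of the mTOR complexes and their regulators 1 was called higher and 2 lower, MTOR among them (10.7%, near the 10.9% of all genes).

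**Figure D3:**
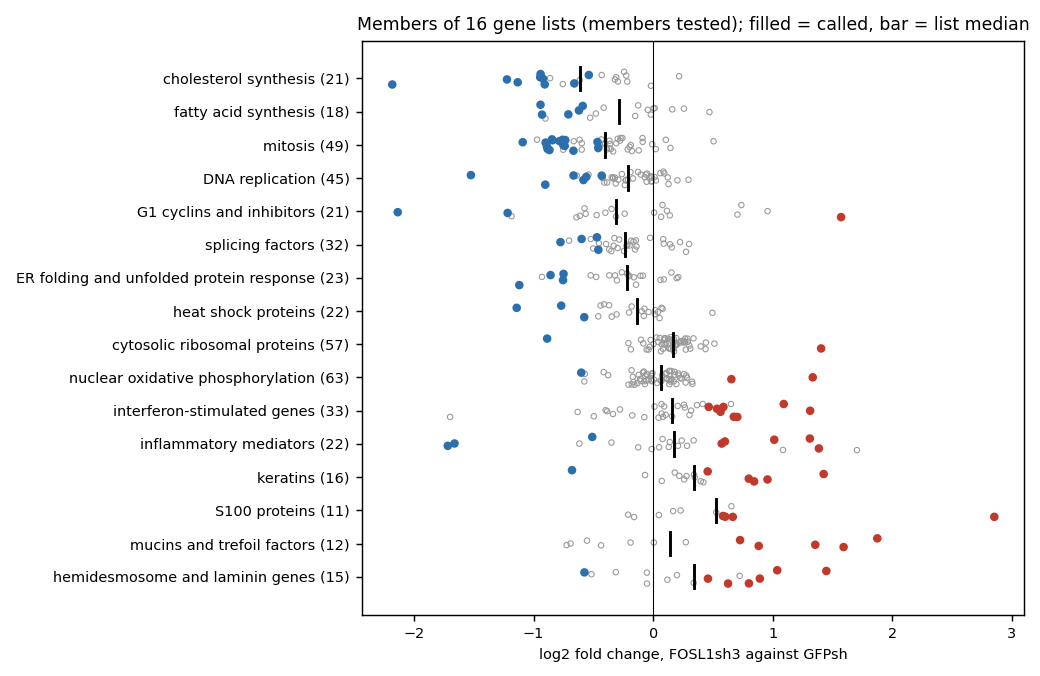
Log2 fold changes of the members of 16 gene lists, with the number tested in parentheses. Filled points were called (red higher, blue lower), open points were not, and the bar is the list median. In cholesterol synthesis and mitosis all filled points lie below 0, and in S100 proteins and mucins all lie above it.

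Secretory mucins and stratified epithelial genes rose in part. Of 12 tested mucin and trefoil genes 5 were called higher and 0 lower (41.7%, beside 10.9% of all genes, and 2 higher without control library 1 or FOSL1sh3 library 3). With the trend removed 2 were called higher, and the list median went from 0.14 to -0.03. MUC5AC, a gel-forming mucin of airway and stomach, had 4.14, 5.96 and 4.96 CPM in the control libraries and 16.3, 17.7 and 21.6 CPM in the FOSL1sh3 libraries, a rise of 1.88 ± 0.26 (adjusted p = 0.00030). MUC1, a transmembrane mucin, rose by 0.88 ± 0.15 from 229 ± 15.9 to 422 ± 73.2 CPM. MUC5B was at low counts and rose by 1.59 ± 0.42 (adjusted p = 0.022), but its call was lost without control library 1, without FOSL1sh3 library 3 (adjusted p up to 0.092) and with the trend removed (adjusted p = 0.087).

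Of 16 tested keratins 5 were called higher and 1 lower (37.5%, beside 10.9% of all genes, median 0.34). With the trend removed 4 were called higher and 0 lower, and the median was 0.11. KRT17, a keratin of basal and activated epithelium, had 183, 126 and 135 CPM in the control libraries and 258, 283 and 256 CPM in the FOSL1sh3 libraries, a rise of 0.84 ± 0.15 (adjusted p = 0.0024). KRT13 rose by 0.96 ± 0.19, KRT6B by 1.43 ± 0.28 and KRT86 by 0.80 ± 0.16. KRT6B and KRT86 have near-identical copies whose reads may be shared. Of 11 tested S100 genes 4 were called higher and 0 lower (36.4%). The count higher was 1 without control library 1 or 3, and 2 without FOSL1sh3 library 3 or with the trend removed, when the list median went from 0.53 to 0.26. S100A9 rose by 2.85 ± 0.54 at 0 to 2.93 CPM. Genes of squamous differentiation were mixed, 3 higher and 4 lower of 19 (36.8%, and 2 lower without control library 1, FOSL1sh3 library 1 or FOSL1sh3 library 3): TGM1, which crosslinks the cornified envelope, rose by 1.20 ± 0.26, and SERPINB2, a plasminogen activator inhibitor, fell (-1.09 ± 0.18) from 158 ± 23.9 to 73.9 ± 18.4 CPM.

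Genes listed for the hemidesmosome, which anchors epithelium to the basement membrane, and for laminins rose in part. Of 15 tested hemidesmosome and laminin genes 6 were called higher and 1 lower (46.7%, beside 10.9% of all genes, median 0.34). With the trend removed 3 were called higher and 1 lower, and the median was 0.12. ITGB4, the integrin subunit at the core of the hemidesmosome, had 204, 209 and 183 CPM in the control libraries and 588, 475 and 564 CPM in the FOSL1sh3 libraries. The FOSL1sh3 libraries lay well above all controls, a rise of 1.45 ± 0.14 (adjusted p = 8.3e-06). LAMA4 and ITGA3 rose by 1.04 ± 0.16 and 0.80 ± 0.13. Among genes listed for epithelial junctions, PPL rose by 1.30 ± 0.16 from 59.5 ± 7.39 to 147 ± 32.6 CPM, and the junctional plakoglobin JUP by 0.81 ± 0.15. CGN of tight junctions fell (-0.74 ± 0.15) and PKP2 of desmosomes (-0.99 ± 0.20). The matrix glycoprotein TNC fell (-1.46 ± 0.19) from 27.03 ± 1.65 to 9.77 ± 1.17 CPM, and the intermediate filament gene VIM fell (-1.74 ± 0.37) at 1.15 to 7.59 CPM. Of 12 tested CEACAM and claudin-type surface genes 2 were called higher and 4 lower, with log2 fold changes of -1.27 ± 0.22 in CEACAM6 and -2.73 ± 0.50 in TM4SF18, whose counts were low. The tropomyosin gene TPM2 rose by 0.71 ± 0.13.

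Among secreted and inflammatory genes, LCN2, a protein that binds bacterial siderophores, had 126, 126 and 116 CPM in the control libraries and 279.9, 322 and 360.1 CPM in the FOSL1sh3 libraries. Its rise of 1.39 ± 0.14 had no overlap (adjusted p = 1.2e-05). C3, the central complement protein, had 169.5, 166 and 161 CPM in the control libraries and 417, 317 and 484 CPM in the FOSL1sh3 libraries, a rise of 1.30 ± 0.15 (adjusted p = 5.9e-05), while CD55, which protects cells from complement, fell (-0.83 ± 0.19). Of 22 tested inflammatory mediators 5 were called higher and 3 lower (36.4%, beside 10.9% of all genes), and without control library 3 or FOSL1sh3 library 3 these were 3 and 1 (1 lower without control library 1). SAA2, an acute phase protein with a near-identical neighbour, rose by 1.31 ± 0.19 and TNFAIP2 by 1.01 ± 0.15. Of 33 tested interferon-stimulated genes 8 were called higher and 0 lower (24.2%), but 2 higher with the trend removed. Leaving out control library 1, 2 or 3 left 3, 4 and 1, and leaving out FOSL1sh3 library 1 or 3 left 4. IFITM2 was called in each fit (1.09 ± 0.17, from 55.5 ± 7.25 to 118 ± 22.6 CPM). Class I antigen presentation had 3 called higher and 0 lower of 20, beside 10.9% of all genes called and 5.21% called higher. The count higher was 0 with the trend removed, and 1 when any library but FOSL1sh3 library 1 was left out.

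PLAT, a plasminogen activator, rose by 0.95 ± 0.13 from 93.6 ± 4.83 to 181 ± 15.98 CPM. Of 25 tested genes of the TGF-beta pathway and its targets 5 were called higher and 2 lower (3 higher without control library 1 or FOSL1sh3 library 1), with SKI at 1.16 ± 0.23 and SMAD3 at 0.63 ± 0.13. Among 25 Wnt and Notch genes 5 were called higher and 2 lower (2 higher without control library 1, and 3 without control library 3 or FOSL1sh3 library 3, or with the trend removed), LRP5 at 0.77 ± 0.15.

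FOS and JUNB, other members of the AP-1 family, rose. Of 15 tested members 3 were called higher and 1 lower, FOSL1 (26.7% called, beside 10.9% of all genes, and 3 lower without FOSL1sh3 library 2), and the list median was -0.20. The third to be called higher was BATF (0.52 ± 0.15), whose call was lost with the trend removed and in the fit on the 6 libraries alone, among others. FOS, the founding partner of JUN, had 3.31, 5.29 and 5.29 CPM in the control libraries and 13.1, 16.4 and 23.4 CPM in the FOSL1sh3 libraries, a rise of 1.91 ± 0.29 (adjusted p = 0.00067). JUNB had 42.5, 40.6 and 41.1 CPM in the control libraries and 82.4, 86.98 and 107 CPM in the FOSL1sh3 libraries, a rise of 1.15 ± 0.15 (adjusted p = 0.00015). Both lay above all controls. Other immediate early genes (1 of 17 called higher, 0 lower) and genes of ERK feedback (1 of 18 called higher, 1 lower) had 5.88% and 11.1% of members called. NRG1, a ligand of the ERBB receptors, fell (-1.502 ± 0.30) and IGF1R rose by 0.99 ± 0.21. The transcription factor TFCP2L1 rose by 1.03 ± 0.17 from 36.2 ± 7.20 to 73.9 ± 13.01 CPM.

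Of 23 tested ER folding genes 4 were called lower and 0 higher (17.4%, beside 10.9% of all genes), and 2 were called lower when control library 1 or 3, or FOSL1sh3 library 1 or 3, was left out. The ER chaperone HSPA5 (-0.75 ± 0.15) and its partner DNAJB11 (-1.12 ± 0.14) fell, the latter from 99.9 ± 6.52 to 45.97 ± 2.51 CPM. CHORDC1, an HSP90 partner, fell (-1.14 ± 0.21). Of 32 splicing factors 4 were called lower and 0 higher (12.5%, beside 10.9% of all genes), TRA2B (-0.78 ± 0.18) among them. The count was 1 without control library 1, 2 without FOSL1sh3 library 3 and 8 without FOSL1sh3 library 2. With the trend removed the count was 1, and the list median went from -0.23 to -0.05 (median GC content 40.7%). Of 33 proteasome genes 3 were called lower and 0 higher (9.09%, below the 10.9% of all genes, and 1 lower without control library 1), PSMD12 (-0.79 ± 0.15) among them. Of 15 genes encoded by mitochondrial DNA 4 were called lower and 0 higher (26.7%): MT-ND5, a complex I subunit, had 877, 1035 and 1058 CPM in the control libraries and 561, 521 and 598 CPM in the FOSL1sh3 libraries (-0.82 ± 0.14, adjusted p = 0.0012). The mitochondrial share of counts was 3.51, 2.58 and 2.06% in FOSL1sh3 libraries 1, 2 and 3 and 2.34 to 2.82% in the controls, and its part in these calls was not tested. Of 63 nuclear genes of oxidative phosphorylation 2 were called higher and 1 lower (4.76%, below the 10.9% of all genes), ATP5MC1 by 0.65 ± 0.14. Of 57 cytosolic ribosomal protein genes 1 was called higher, RPL34 (1.41 ± 0.38), and 1 lower, RPS24 (-0.89 ± 0.17), both with copies elsewhere. These made up 3.51% of the list, below the 10.9% of all genes. The list median was 0.17 (0.15 with the trend removed and 0.09 by library totals). A log2 fold change above 0 was found in 48 of the 57, beside 6481 of the 12814 genes tested. Ribosomal protein genes made up 27.2 to 27.5% of counts in the FOSL1sh3 and 24.6 to 26.2% in the control libraries. Of 55 mitochondrial ribosome genes 7 were called lower and 0 higher, MRPS35 (-0.69 ± 0.14) among them. This was 12.7% of the list, beside 10.9% of all genes called and 5.65% called lower. The count was 3 with the trend removed, and 1 to 4 when a library other than FOSL1sh3 library 2 was left out. NOP58, of ribosome assembly, fell (-0.75 ± 0.16).

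Of 34 tested genes of glycolysis and the hypoxia response 2 were called higher and 2 lower (11.8%), near the 10.9% of all genes. TXNIP, a member and an inhibitor of thioredoxin and of glucose uptake, had 40.4, 44.7 and 42.4 CPM in the control libraries and 92.8, 94.8 and 85.5 CPM in the FOSL1sh3 libraries, a rise of 1.10 ± 0.13 (adjusted p = 8.5e-05). The aldehyde dehydrogenase ALDH3B1 rose by 1.09 ± 0.15 from 33.6 ± 3.66 to 71.6 ± 3.57 CPM, the retinoid receptor RXRA by 0.80 ± 0.15, and the ER selenoprotein SELENOM by 1.36 ± 0.18. The transferrin receptor gene TFRC fell (-0.69 ± 0.13). The lysosomal protease CTSD rose by 0.76 ± 0.13 and the autophagy kinase ULK1 by 1.01 ± 0.19. MYOF, a membrane repair protein, rose by 0.70 ± 0.14.

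The log2 fold changes moved with base composition. Across 12805 genes with a transcript in GENCODE release 29, Spearman's rho of the log2 fold change with the GC content of the longest transcript was 0.44, and 0.42 with that of its last 500 bases, while it was -0.06 with exon length and -0.01 with level. These correlations are across genes, which are not independent replicates and share the same 6 libraries. With genes ranked by GC content and cut into 10 bins of equal size, the lowest bin had 8 genes called higher and 165 lower and a median of -0.33, and the highest bin had 153 higher and 12 lower and a median of 0.25. The median GC content was 56.8% for genes that rose and 41.9% for genes that fell, against 48.4% for all tested. The trend was present in every FOSL1sh3 library, with rho of 0.36, 0.23 and 0.47 in libraries 1, 2 and 3 against the mean of the controls. The controls, each against the others, had -0.02, 0.24 and -0.20, and the FOSL1sh10 libraries 0.18, 0.06 and 0.19 against the mean of the controls. Whether base composition or another property of the libraries or of the RNA goes with this trend was not tested.

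Removing each library's trend on GC content and length brought the lowest bin to 30 higher and 32 lower, and the highest to 46 and 46. Chromosome medians moved with it: chromosome 16, at a median GC content of 54.9%, had a median of 0.17 (0.05 with the trend removed), and chromosome 13, at 42.3%, had -0.19 (-0.03). Antisense genes (median 0.24, and 0.19 with the trend removed) and lincRNAs (0.18 and 0.17, with 29 called higher and 13 lower) stood above protein-coding genes (-0.01) in both fits. Of the genes above, the rise of ITPK1 was 1.54 with the trend removed, that of ITGB4 was 1.15 and that of CDKN1C was 1.35, and the fall of HMGCS1 was -1.92, of MTOR -2.06 and of SELENOT -1.06, all still called.

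**Figure D4:**
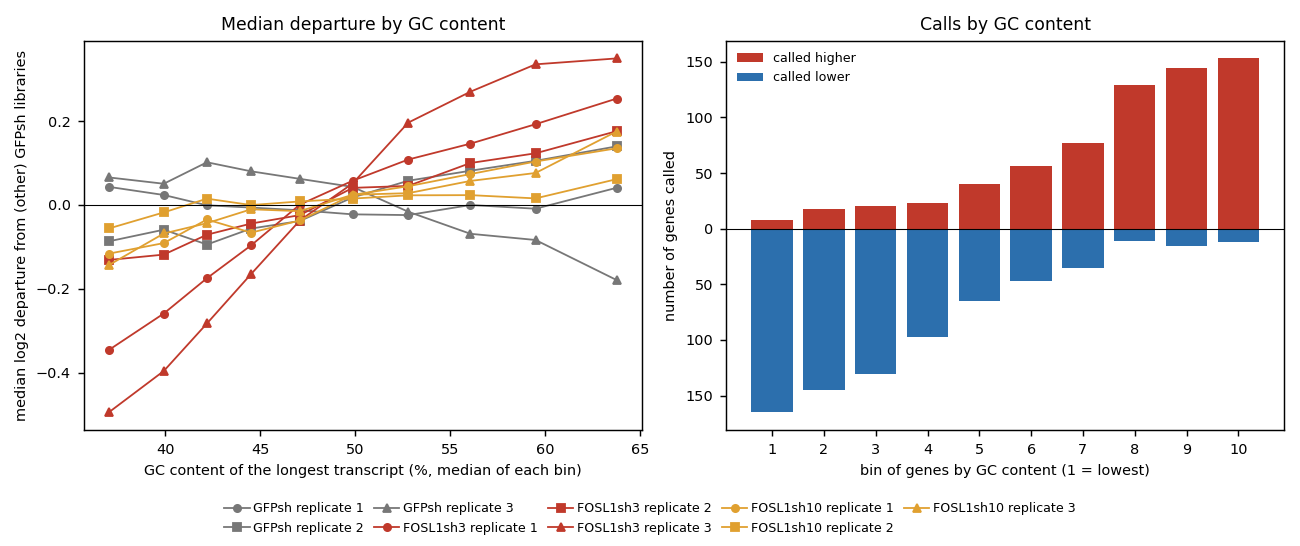
Left, the median log2 departure from the mean of the GFPsh libraries (for a control library, of the other controls) in 10 equal bins of genes by GC content of the longest transcript (percent), for each of 9 libraries. Right, genes called higher (red, upward) and lower (blue, downward) in each bin. The FOSL1sh3 lines slope upward, library 3 the most. Those of GFPsh library 2 and FOSL1sh10 libraries 1 and 3 slope upward too, and that of GFPsh library 3 slopes downward. Calls move from 165 lower in the first bin to 153 higher in the last.

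The count of calls depended on which library was left out. Without control library 1, 2 or 3 there were 599, 895 and 747 calls, and without FOSL1sh3 library 1, 2 or 3 there were 990, 1803 and 756. A set of 365 genes, 174 higher and 191 lower (2.85% of those tested), was called in the same direction in every alternative, and no called gene changed sign in any. List counts of 3 or fewer moved by at most 3 members when 1 library was left out. Where edgeR's quasi-likelihood test called 0 members of a list in 1 direction, 0 to 6 members had an unadjusted p under 0.05 in that direction, DESeq2 called 0 to 2 and limma voom 0 or 1.

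**Figure D5:**
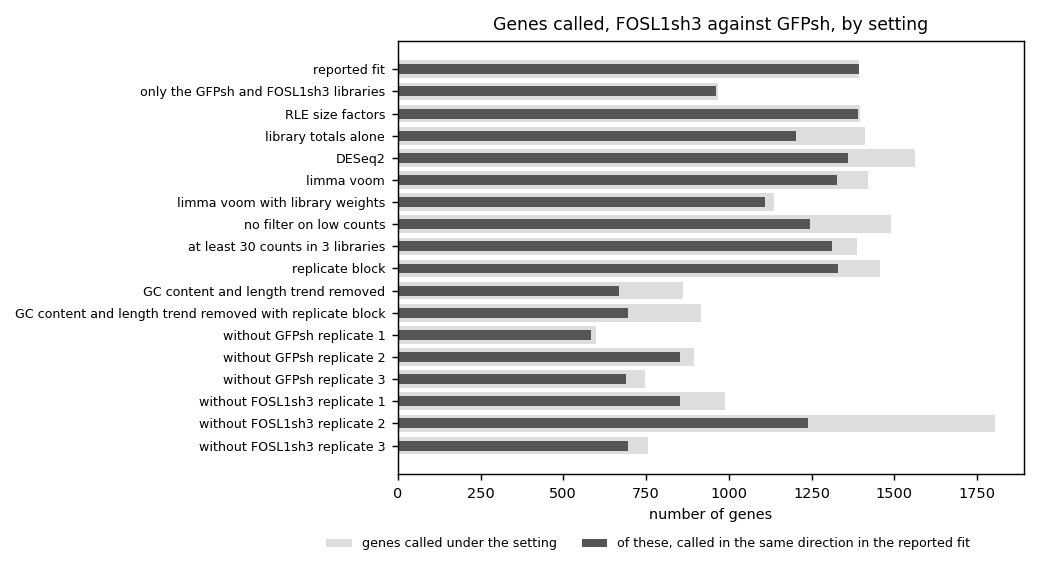
Number of genes called in each alternative fit (light bars) and the part of them called in the same direction in the reported fit (dark bars), from 0. The count is highest without FOSL1sh3 replicate 2 (1803) and lowest without GFPsh replicate 1 (599).

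Set directly against the FOSL1sh10 libraries, which share no library with the FOSL1sh3 group, 1633 genes were called (12.7%). MTOR was at 48.5, 48.3 and 56.96 CPM with FOSL1sh10, above every FOSL1sh3 library, and the difference of FOSL1sh3 minus FOSL1sh10 was -2.05 ± 0.19 (adjusted p = 3.1e-06). The hairpin sequences were not analysed here, and a match of either hairpin to MTOR was not tested. ITGB4 was at 244, 249 and 236 CPM, below every FOSL1sh3 library (1.16 ± 0.13, adjusted p = 2.6e-05). For other genes no difference was called, which does not show that the hairpins act alike: it was 0.31 ± 0.13 (adjusted p = 0.13) for ITPK1, -0.25 ± 0.15 (adjusted p = 0.31) for IL1RN, -0.67 ± 0.26 (adjusted p = 0.10) for HMGCS1 and 0.15 ± 0.19 (adjusted p = 0.65) for L1CAM. Each hairpin's own change from the controls uses the same 3 GFPsh libraries. The direct contrast uses the same FOSL1sh3 libraries by which these genes were named.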

How the data were processed

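Each of 9 libraries had 1 table of raw counts, whole numbers of reads per gene that the authors deposited without normalization. Libraries were made by MARS-seq, a low-input method, from RNA with an RQI above 7, per the labels' protocols. As background, MARS-seq samples the 3' end of a transcript and adds a molecular identifier. The sources used here do not give how identifiers were treated, and floors cover counting error only. Alignment used STAR 2.5.3a on hg38 after FastQC 0.11.5, with edgeR and limma also named, per the submitters' processing notes. Per the file headers, featureCounts 1.6.0 assigned reads to GENCODE release 28 genes by their exons, with no strand option. Each table held 58381 genes, 57754 with a current symbol.

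Counts were fitted with edgeR 4.0.16 (R 4.3.3) over all 9 libraries by group, with TMM scaling, filterByExpr (minimum count 10, total 15) and Benjamini-Hochberg adjustment over the 12814 genes kept. Alternatives used limma 3.58.1 and DESeq2 1.42.0, other scaling and filters, fewer libraries, the replicate number and each library's spline trend on GC content and exon length, from GENCODE release 29. The procedure was tested on simulated data. A count of 3, the limit a count of 0 allows, was 0.283 to 0.435 CPM of the unscaled totals of the 9 libraries.

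The genes and 56 gene lists were chosen with earlier results of these data known, so counts over lists are descriptions. Genes named were FOSL1, the 15 called higher and 15 called lower with the largest change, a mean of at least 30 counts and no overlap of groups, the 8 in each direction with the smallest p-values, up to 4 called members of each list, and the most variable genes. After their values were seen, genes chosen only as list members were named in the text only where called in every alternative, apart from BATF and RPL34, which complete a count. MUC5B, a list member not called in every alternative, was named because it is among the 15 largest rises. Some genes that this rule names are not reported here.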

Additional observations from a re-analysis of the deposited data

Results flagged for a closer look

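Of the called genes named above, 60 differed between the 2 hairpins in a direct contrast of FOSL1sh3 with FOSL1sh10 libraries, tested in the same edgeR quasi-likelihood fit with adjustment over all genes, and are given here as the difference of FOSL1sh3 minus FOSL1sh10 on the log2 scale. This contrast uses no control library, and 12.7% of all genes passed it. It does use the FOSL1sh3 libraries by which the genes were named, which favours larger changes with FOSL1sh3 among them. The counts in each direction below are therefore descriptions.

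25 genes that rose with FOSL1sh3 were higher with it than with FOSL1sh10 (adjusted p from 3.1e-06 to 0.042). The difference was 2.75 for BEST2, 2.65 for MUC5AC, 2.10 for MUC5B, 1.62 for PPL, 1.59 for KRT13, 1.36 for TGM1, 1.32 for ALDH3B1, 1.16 for TFCP2L1 and 1.16 for ITGB4. Among epithelial and other genes in the middle of this range it was 1.08 for DEFB1, 1.05 for CDKN1C, 0.96 for ITGA3, 0.91 for LRP5, 0.88 for FOS, 0.87 for TMC4, 0.79 for GRINA, 0.78 for MUC1 and 0.77 for LAMA4. At the smaller end it was 0.77 for ULK1, 0.76 for JUNB, 0.76 for RXRA, 0.73 for TPM2, 0.73 for TNFAIP2, 0.60 for CTSD and 0.53 for LCN2. BEST2, MUC5AC, KRT13 and PPL had a log2 fold change of -0.68, -0.78, -0.63 and -0.31 with FOSL1sh10 against the controls, and none of these 4 was called (adjusted p from 0.081 to 0.31).

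31 genes that fell with FOSL1sh3 were lower with it than with FOSL1sh10 (adjusted p from 3.1e-06 to 0.047). The largest differences were -2.83 for TM4SF18, -2.20 for SCML1, -2.05 for MTOR, -1.98 for IL7R, -1.86 for CCNG1, -1.78 for SERPINB2, -1.77 for TNC, -1.68 for VIM and -1.51 for NRG1. The next were -1.41 for FRMD5, -1.39 for SELENOT, -1.36 for DEPDC1B, -1.19 for TFRC, -1.19 for GPAT3, -1.16 for GABPB1, -1.12 for GADD45A, -1.06 for TM4SF1 and -1.04 for HSPA5. Smaller ones were -0.98 for DNAJB11, -0.97 for CDK6, -0.91 for TMEM158, -0.87 for CDKN1A, -0.84 for ELOVL6, -0.79 for INSIG1, -0.71 for SQLE, -0.70 for PSMD12 and -0.69 for CHORDC1. The smallest were -0.69 for CCNA2, -0.65 for TRA2B, -0.61 for CD55 and -0.47 for KIF23. SERPINB2 and TFRC had log2 fold changes of 0.69 and 0.51 with FOSL1sh10 against the controls, both called (adjusted p = 0.024 and 0.024).

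4 genes rose with FOSL1sh3 but were higher still with FOSL1sh10: the difference was -2.13 for SAA2, -1.18 for S100A9, -1.10 for KRT6B and -0.87 for KRT86 (adjusted p from 9.9e-07 to 0.042). SAA2, KRT6B and KRT86 have near-identical copies, and S100A9 has few counts. The trend on GC content was not removed from this contrast, and its part in these differences was not tested.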

How the results depend on the processing

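No called gene changed sign in any alternative, and FOSL1 was called in each. With the GC content and length trend removed, genes called went from 1392 to 863, those higher from 668 to 413, those lower from 724 to 450, and those with a log2 fold change of 1 or more in size from 389 to 252. With the trend removed and the replicate block together these were 917, 427, 490 and 244. Leaving out 1 library at a time gave 599 to 1803 genes called, 292 to 781 higher, 307 to 1022 lower and 257 to 586 of that size. The fit on the 6 libraries alone called 966, DESeq2 1564, limma voom 1422, and voom with library weights, chosen after seeing the data, 1136. The cause of these differences was not tested. The replicate block alone called 1456 genes. Replicate numbers were not taken as pairs, since they are not said to mark a culture or a day. Deviations of GFPsh and FOSL1sh3 libraries of the same number correlated at 0.18, 0.03 and 0.13. Those of different numbers correlated at -0.165 to 0.03, and GFPsh library 2 correlated best with FOSL1sh3 library 3 (0.03). Depth limits genes of few counts, of which 125 called genes had a mean under 30 counts. The most variable genes, none of which was called, changed sign. Leaving out 1 library at a time moved the log2 fold change of RPL7 from -0.83 to 1.53, MTATP6P1 from -0.38 to 1.23, MT-ATP6 from -0.32 to 1.07, NDUFB3 from -0.61 to 0.65, NHSL2 from -0.049 to 1.42, RPS19P3 from -0.17 to 1.04, RPL12P47 from -0.28 to 1.03 and MICOS10 from -0.20 to 0.97. With the trend removed RPS19P3 had -0.052 and RPL12P47 -0.064. RPS15A kept its sign in each.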
